A study of Mus musculus with 6 samples.

Results

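The 9 genes described here encode parts of the complement system and were chosen by name: C1qa, C1qb, C1qc, C1ra, C3, C4b, Cfb, C3ar1 and C5ar1. They are 9 of the 33184 genes in the table, and all 9 were present and passed the filter on low values (0.5 FPKM or more on average), as 16005 genes did. FPKM is a level corrected for gene length and for the size of the library, and fold changes are on the log2(FPKM + 1) scale, as libraries labelled SFRP2-siRNA minus NC. RNA-seq was applied to the wound tissues of db/db mice, which lack a working leptin receptor and become obese and diabetic. Both groups carried the dbdb genotype and a 6 mm full-thickness skin wound, and the siRNA was given by peri-wound injection at dpi1 (post-injury day 1). The control group (NC, 3 libraries) received NC-siRNA and the other group (3 libraries) received SFRP2-siRNA. The treated titles run from siRNA-1 to siRNA-3, and whether these numbers mark animals or siRNA sequences is not stated. Tissue was collected at dpi4 per the protocol, while the sample titles carry day 3, and it is not stated which day they count from. No wild-type and no unwounded skin was among these libraries, the age of the mice is not given in the labels, and nothing says that the libraries of a group came from separate mice, so the p-values measure the spread between these libraries.

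Complement is a cascade of plasma and tissue proteins that marks microbes, dying cells and immune complexes for removal. C1q, a protein built from chains A, B and C, binds such targets and switches on the proteases C1r and C1s, which cut C4 and C2. The enzyme formed in this way, like the alternative pathway enzyme that contains factor B, cuts C3, the component on which all routes meet. The small fragments released from C3 and C5 act on the receptors C3ar1 and C5ar1 of myeloid cells. Most plasma components are made in the liver, whereas the C1q chains come mainly from macrophages and dendritic cells, and fibroblasts are a known local source of C1r, C1s, C3 and C4.

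The C1q genes lie next to each other on mouse chromosome 4 (GENCODE vM21, build GRCm38, all on the minus strand). C1qb spans 136880129 to 136886187, C1qc 136889804 to 136893065 and C1qa 136895917 to 136898803. C3 (57203970 to 57228136), C4b (34728380 to 34743882) and Cfb (34856374 to 34862518) lie on the minus strand of chromosome 17. C1ra (124512405 to 124523443, plus strand) and C3ar1 (122847138 to 122856161, minus strand) lie on chromosome 6, and C5ar1 (16246743 to 16259540, minus strand) on chromosome 7. RefSeq promoter sequences (build GRCm38.p6) were at hand for 6 of the 9 genes, all but C1qa, C4b and Cfb. The 250 bases before each RefSeq start were searched on both strands for 4 short motifs. The letters GAGGAA, the PU box bound by the myeloid factor PU.1, occurred in 2 of the 6, C1qb and C1qc, and in 23.1% of 27025 promoters of the same length. TTGCNNAA, a C/EBP motif, occurred only in C3 among the 6 and in 9.55% of all. GAAANNGAA, the core of interferon response elements, occurred only in C5ar1 among the 6 (7.16% of all), and TTCNNNGAA, the GAS motif bound by STAT proteins, in 0 of the 6 (7.18% of all). No matches overlapped each other, and a match describes the sequence and not a bound site. The 3 stretches that hold a match and lie outside the annotated gene are shown, 5′ to 3′ on the gene's strand, with the matching letters in capitals. They cover chr4:136886201-136886450 for C1qb, chr4:136893066-136893164 for C1qc, where the match is on the reverse strand, and chr17:57228137-57228386 for C3.
C1qb: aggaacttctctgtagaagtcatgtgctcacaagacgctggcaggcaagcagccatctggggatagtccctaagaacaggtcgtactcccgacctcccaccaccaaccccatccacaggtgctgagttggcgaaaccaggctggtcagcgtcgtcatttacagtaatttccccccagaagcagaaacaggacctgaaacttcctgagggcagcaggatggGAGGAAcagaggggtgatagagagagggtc
C1qc: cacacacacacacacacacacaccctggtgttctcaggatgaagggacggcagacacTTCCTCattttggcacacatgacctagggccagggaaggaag
C3: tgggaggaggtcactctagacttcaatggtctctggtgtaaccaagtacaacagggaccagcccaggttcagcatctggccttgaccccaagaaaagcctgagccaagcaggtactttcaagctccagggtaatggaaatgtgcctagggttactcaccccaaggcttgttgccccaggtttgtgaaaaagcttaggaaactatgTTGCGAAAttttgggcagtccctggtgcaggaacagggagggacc
The PU box of C1qb lay 30 to 25 bases before the start, that of C1qc 193 to 188 bases before it, and the C/EBP match of C3 45 to 38 bases before it.

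Between 42.9 and 47.1 M reads (M, mega) stood behind each library, and 26081 to 27189 genes had a value above 0. Transcripts encoded by mitochondrial DNA took 17.4% to 35.8% of the summed FPKM in NC, with the highest share in NC 1, and 11.8% to 16.6% in the libraries labelled SFRP2-siRNA. The siRNA target went against the label. For Sfrp2 (ENSMUSG00000027996) NC 1, 2 and 3 had 11.6, 40.6 and 14.1 FPKM, against 50.6, 54.6 and 55.2 FPKM in those labelled SFRP2-siRNA 1, 2 and 3. Its log2 fold change was 1.45 (SE 0.43) with an adjusted limma p of 0.518. Directions are therefore given by label, and none of them stands for a loss of Sfrp2. Epidermal, dermal and muscle transcripts were all present, with summed levels of 10 keratinocyte genes between 3862 and 7349 FPKM and of 7 skeletal muscle genes between 3106 and 11441 FPKM. In such bulk tissue, fewer cells of a type and less RNA per cell cannot be told apart.

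All 9 complement genes had a higher mean log2 level in the libraries labelled SFRP2-siRNA than in NC, and 0 of 9 passed the threshold (limma, adjusted p under 0.05 and an absolute log2 fold change above 1). Over all 16005 genes 0 passed as well (0%), the lowest adjusted p was 0.518, and 1075 genes were higher and 458 lower at an unadjusted p under 0.05. Limma voom on the reads recovered from the FPKM values also called 0 genes. At an unadjusted limma p under 0.05 stood 5 of the 9, all of them higher (C1qa, C1qb, C1qc, C1ra and C3ar1), where 6.72% of all genes did so. Only 1 of the 9 did so under each of the other scalings (median-of-ratios, quantile and equal sums without mitochondrially encoded genes). Of all genes, 419 of 15974, 470 of 16013 and 396 of 16006 were higher at that level under these scalings, in that order. No overlap between the groups was seen for 4 of the 9 (C1qb, C1qc, C1ra and C3ar1), against 13.9% of all genes that were higher without overlap. The median log2 fold change of the 9 genes was 0.59 and that of all genes 0.13. A higher mean was also seen for 71.8% of all genes, since the FPKM values of most genes were somewhat higher in the libraries labelled SFRP2-siRNA. When the libraries were rescaled by median-of-ratios factors, the all-gene count without overlap turned from 2226 higher and 628 lower to 840 higher and 1261 lower. Under that scaling 5.26% of all genes were higher without overlap, as were 2 of the 9 complement genes, C1qc and C1ra.

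**Figure D1:**
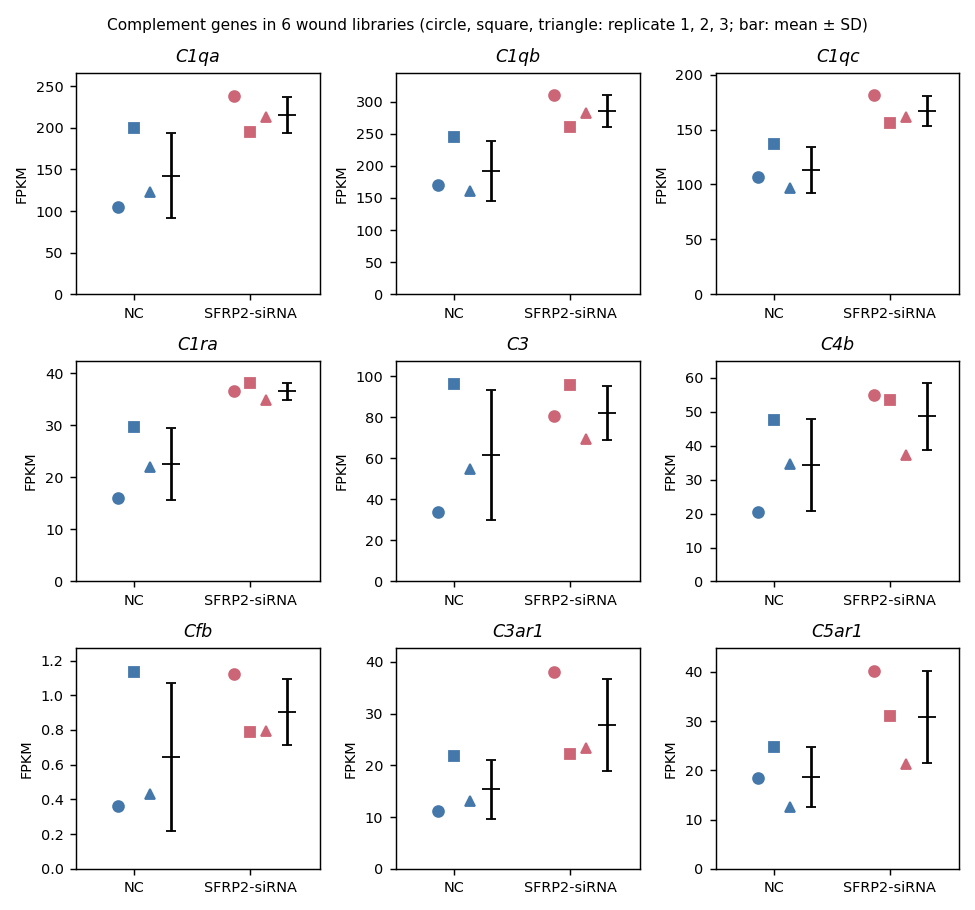
FPKM (vertical axes, each from 0) of the 9 complement genes in the 3 NC (blue) and 3 SFRP2-siRNA libraries (red). Circles, squares and triangles mark replicates 1, 2 and 3, and bars give the mean ± SD; NC 2 (blue square) was the highest NC library for all 9 genes.

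The plot of FPKM by library shows how the 9 genes shared their order over the libraries. NC 2 was the highest of the NC libraries for 9 of 9 genes, where this held for 33.2% of all genes kept. Among the marker lists described below, it also held for 13 of 15 macrophage, 10 of 11 fibroblast and 6 of 7 endothelial genes. It held for 3 of 9 neutrophil, 1 of 10 keratinocyte, 0 of 10 adipocyte and 0 of 7 skeletal muscle genes. The lowest value of all 6 libraries stood in NC 1 for 6 genes (46.9% of all genes) and in NC 3 for the other 3. Of all genes, 55.1% had their lowest value in either library. The highest value stood in SFRP2-siRNA 1 for 6 of 9 genes (27.9% of all genes), as it did for 14 of 15 macrophage and 4 of 11 fibroblast genes. For C1qa, C4b and C5ar1, 3 of the 9 genes, the value of NC 2 lay within the range of the libraries labelled SFRP2-siRNA. Without NC 2, 9 of 9 genes had groups that did not overlap, all of them higher, where 25.9% of all genes were higher without overlap. As NC 2 was the highest NC library for all 9, leaving it out could only move their groups further apart. This held for 33.2% of all genes, so the 25.9% is no like background. Without NC 2 all 9 had an unadjusted limma p under 0.05 with an adjusted p of at least 0.256. Leaving out another library gave fewer at that level, 1 of 9 without NC 1, NC 3 or SFRP2-siRNA 1, 3 without SFRP2-siRNA 2 and 4 without SFRP2-siRNA 3. Of all genes, 1572 of 15994 were higher at that level without NC 2, 458 of 16107 without NC 1 and 921 of 16031 without NC 3. The counts were 892 of 15984 without SFRP2-siRNA 1, 598 of 15965 without SFRP2-siRNA 2 and 1112 of 15988 without SFRP2-siRNA 3.

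The C1q chains were the most abundant of the 9 transcripts. C1qb, the B chain, had 170, 245 and 161 FPKM in NC 1, 2 and 3, and 311, 261 and 283 FPKM in those labelled SFRP2-siRNA 1, 2 and 3. The lowest library labelled SFRP2-siRNA stood above the highest NC library. Means of 192 ± 46.2 and 285 ± 24.8 FPKM (SD, n = 3 each) gave a log2 fold change of 0.59 (SE 0.22), with an exact permutation p of 0.1, the smallest that 3 against 3 libraries allow, and an adjusted limma p of 0.518. C1qc, the C chain, had 107, 137 and 96.6 FPKM in NC and 182, 156 and 162 FPKM in those labelled SFRP2-siRNA. Here too the groups did not overlap, with means of 113 ± 20.9 and 167 ± 13.5 FPKM (SD, n = 3 each) and a log2 fold change of 0.56 (SE 0.19, exact permutation p = 0.1, adjusted limma p = 0.518). C1qa, the A chain, had 104, 200.2 and 123 FPKM in NC and 239, 195 and 213 FPKM in those labelled SFRP2-siRNA. Its groups overlapped, because NC 2 lay just above SFRP2-siRNA 2. The C1qa means were 142 ± 50.9 and 216 ± 21.8 FPKM (SD, n = 3 each) and the log2 fold change was 0.65 (SE 0.27, exact permutation p = 0.2, adjusted limma p = 0.518). Each C1q value rested on 4784 to 15085 reads, so counting error was small beside the spread between libraries.

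The chains kept close proportions to each other. C1qc stood at 0.56 to 0.63 of C1qb in all 6 libraries, and C1qa at 0.75 to 0.82 of C1qb in 5 of them. NC 1 was apart, with a C1qa to C1qb ratio of 0.61. In the same library C1qa was slightly below C1qc (ratio 0.98), while the other libraries gave 1.25 to 1.46. The exact permutation test detected no difference in these ratios between the groups, with p of 0.9 for C1qa to C1qb, 0.7 for C1qc to C1qb and 0.8 for C1qa to C1qc. Over the 22 ratios of transcripts that were compared, every adjusted permutation p (Benjamini-Hochberg) was 1, and the smallest unadjusted p that the design allows is 0.1.

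C1ra, the protease of the C1 complex, had 16.1, 29.8 and 22.0 FPKM in NC and 36.6, 38.2 and 35.0 FPKM in those labelled SFRP2-siRNA. The libraries labelled SFRP2-siRNA lay close together, and all of them were above NC. C1ra had means of 22.6 ± 6.87 and 36.6 ± 1.62 FPKM (SD, n = 3 each), with a log2 fold change of 0.71 (SE 0.22), an exact permutation p of 0.1 and an adjusted limma p of 0.518. C1ra was the gene of the 9 whose groups stayed apart without overlap in all 15 alternative settings. Its copy C1rb is near identical, so the split of reads between the pair is uncertain.

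C3, the central component, had 34.0, 96.3 and 54.8 FPKM in NC and 80.6, 95.7 and 69.5 FPKM in those labelled SFRP2-siRNA. NC 2 held the highest value of all 6, and the NC libraries differed among themselves by more than those labelled SFRP2-siRNA did. The C3 means were 61.7 ± 31.7 and 82.0 ± 13.1 FPKM (SD, n = 3 each) and the log2 fold change was 0.52 (SE 0.37, 95% interval −0.36 to 1.39, exact permutation p = 0.4, adjusted limma p = 0.579). Without NC 2 the C3 log2 fold change was 0.90 and without NC 1 it was 0.16. C4b, which yields the C4 that C1s cuts, had 20.5, 47.6 and 34.7 FPKM in NC and 54.9, 53.6 and 37.4 FPKM in those labelled SFRP2-siRNA. SFRP2-siRNA 3 stood below NC 2, so the groups overlapped. The C4b means were 34.3 ± 13.6 and 48.6 ± 9.77 FPKM (SD, n = 3 each), with a log2 fold change of 0.55 (SE 0.32, exact permutation p = 0.2, adjusted limma p = 0.544), and 0.82 without NC 2 and 0.23 without NC 1. C4b has the near-identical copy C4a, so its reads may also be split. C3 stood at 1.47 to 2.02 times C4b in every library, and no difference in the ratio between the groups was detected (exact permutation p = 0.9).

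Cfb, factor B of the alternative pathway, was the least abundant of the 9, at 0.361, 1.13 and 0.433 FPKM in NC and 1.12, 0.789 and 0.796 FPKM in those labelled SFRP2-siRNA. NC 2 was the highest library, and these values rested on 45 to 150 reads each. The log2 fold change was 0.24 (SE 0.19, exact permutation p = 0.4, adjusted limma p = 0.608), on a scale with 1 FPKM added that understates changes of low genes. The level of Cfb is uncertain for a further reason. Of its 2825 exon bases, 79.5% are shared on the same strand with Gm20547, a gene annotated in GENCODE vM21. Reads that fall in both may have been left uncounted if the annotation used by the submitters held Gm20547. That is not known, and Gm20547 was not among the genes with deposited values.

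The anaphylatoxin receptors, which guide myeloid cells to sites of complement activation, had higher means as well, and neither passed the threshold. C3ar1 had 11.1, 21.9 and 13.0 FPKM in NC and 38.1, 22.1 and 23.4 FPKM in those labelled SFRP2-siRNA. The groups did not overlap, though NC 2 and SFRP2-siRNA 2 nearly met. Its means were 15.3 ± 5.73 and 27.9 ± 8.92 FPKM (SD, n = 3 each), and the log2 fold change of 0.83 (SE 0.30) was the largest of the 9 genes (exact permutation p = 0.1, adjusted limma p = 0.518). C5ar1 had 18.5, 24.8 and 12.6 FPKM in NC and 40.1, 31.0 and 21.3 FPKM in those labelled SFRP2-siRNA. SFRP2-siRNA 3 lay below NC 2 and the groups overlapped, with means of 18.6 ± 6.08 and 30.8 ± 9.37 FPKM (SD, n = 3 each) and a log2 fold change of 0.70 (SE 0.31, exact permutation p = 0.2, adjusted limma p = 0.520). C3ar1 exceeded C5ar1 in 2 of the 6 libraries, so the pair had no fixed order.

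**Figure D2:**
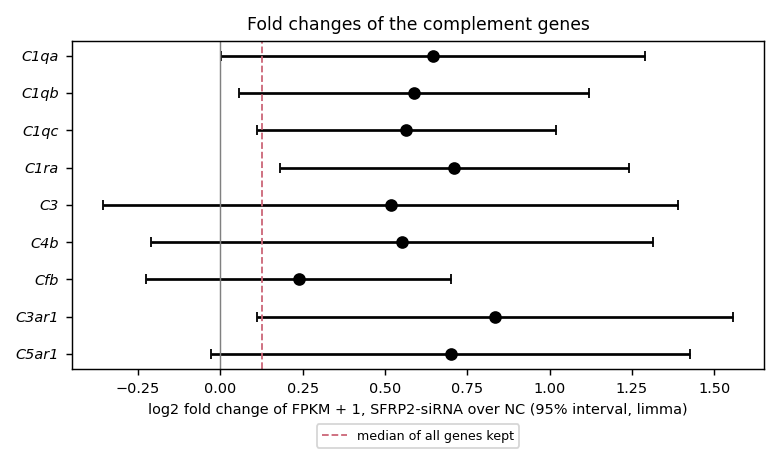
log2 fold change of FPKM + 1 (SFRP2-siRNA over NC, horizontal axis) of the 9 genes, with the 95% interval from limma on 3 libraries a group; the dashed line is the median of all 16005 genes, 0.13. All 9 points lie to the right of it, and the intervals of C3, C4b, Cfb and C5ar1 include 0.

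In order of their mean level over the 6 libraries, which FPKM allows because it is scaled per length, the genes ran from C1qb (239 FPKM) through C1qa (179), C1qc (140), C3 (71.8), C4b (41.4), C1ra (29.6), C5ar1 (24.7) and C3ar1 (21.6) to Cfb (0.772). The ranges over the libraries did not overlap between C1qc and C3, with a ratio of means of 1.95, and between C3ar1 and Cfb, with a ratio of 28.0. C1qb was above C1qa, C3 above C4b and C4b above C1ra within each of the 6 libraries, although their ranges overlapped. C1ra was above C5ar1 in 4 of 6 libraries, and C5ar1 above C3ar1 in 4 of 6, so these neighbours did not differ beyond their spread.

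To set the genes beside markers of cells known to make them, the log2 values of each group of genes were averaged and centred on the 6 libraries. The mean of the C1q chains stood at −0.50, 0.10 and −0.50 in NC 1, 2 and 3, and at 0.44, 0.18 and 0.28 in those labelled SFRP2-siRNA, without overlap. The mean of C1ra, C3, C4b and Cfb, called stromal components here, stood at −0.76, 0.28 and −0.28 in NC and 0.34, 0.34 and 0.07 in those labelled SFRP2-siRNA, with overlap through NC 2. Both groups of genes were thus low in NC 1 and NC 3 and high elsewhere. The C1q chains minus the stromal components gave −0.05 ± 0.26 in NC and 0.05 ± 0.19 in those labelled SFRP2-siRNA (SD, n = 3 each), a difference of 0.10 that lay within the spread of either group. The log2 fold changes of the groups of genes, less the median of all genes, were 0.47 for the C1q chains and 0.38 for the stromal components. The stromal mean includes Cfb, which averaged 0.772 FPKM, a level at which adding 1 FPKM understates changes. With a pseudocount of 0.1 the values were 0.444 and 0.438. With only genes of 2 FPKM or more, which leaves out Cfb, they were 0.467 and 0.460. The lower stromal value, and the difference of 0.10, thus rested largely on Cfb.

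Markers of macrophages and fibroblasts varied alongside these genes. Over all genes, 71.8% had a higher mean and 6.72% were higher at an unadjusted p under 0.05. Of 15 macrophage genes, 15 had a higher mean in the libraries labelled SFRP2-siRNA (10 at an unadjusted p under 0.05, 0 past the threshold, median log2 fold change 0.80), and their summed level was 919 to 1510 FPKM in NC and 1663 to 2450 FPKM in those labelled SFRP2-siRNA. Of 11 fibroblast genes, 11 were higher (8 at an unadjusted p under 0.05, 0 past the threshold, median 0.74), with sums of 951 to 2042 and 2277 to 2364 FPKM. Among the defining macrophage markers, Csf1r, the receptor for a macrophage growth factor, had 22.6, 44.7 and 30.3 FPKM in NC and 60.6, 49.4 and 44.3 FPKM in those labelled SFRP2-siRNA. Adgre1, which encodes F4/80, had 8.75, 27.4 and 15.5 FPKM in NC and 35.2, 26.6 and 27.8 FPKM in those labelled SFRP2-siRNA. Their groups overlapped through NC 2, like that of C1qa. Of the fibroblast markers, Col1a1, a collagen chain, had 346, 627 and 254 FPKM in NC and 755, 691 and 690 FPKM in those labelled SFRP2-siRNA, without overlap, while Pdgfra, a growth factor receptor of fibroblasts, had 5.38, 14.1 and 8.504 FPKM and 19.8, 15.8 and 13.8 FPKM, with overlap. The part of these markers in the complement values was not tested.

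**Figure D3:**
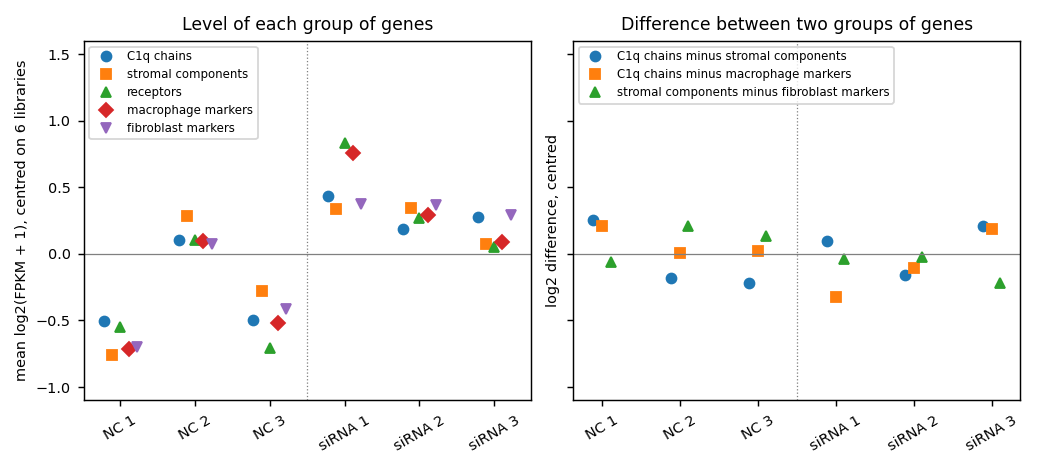
Left, mean log2(FPKM + 1) of 3 C1q chains, 4 stromal components, 2 receptors, 15 macrophage markers and 11 fibroblast markers in each library, each centred on its mean over the 6 libraries; right, differences between such means. NC 1 and NC 3 lie below 0 and the other libraries above 0 for all 5 groups of genes on the left, and on the right the 3 differences overlap between NC and SFRP2-siRNA.

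Set against the markers within each library, the complement genes differed less between the groups than they did in level. Subtracting any list with a similar fold change narrows the difference, so this is not particular to macrophage or fibroblast markers. The mean log2 fold change was 0.76 for macrophage, 0.69 for fibroblast, 0.65 for skeletal muscle and 0.59 for neutrophil genes. It was 0.60 for the C1q chains and 0.50 for the stromal components. The C1q chains minus the macrophage markers averaged 0.08 ± 0.11 in NC and −0.08 ± 0.26 in those labelled SFRP2-siRNA, and the stromal components minus the fibroblast markers 0.09 ± 0.14 and −0.09 ± 0.11 (log2, SD, n = 3 each). The groups overlapped in both cases, although the stromal difference of −0.19 exceeded the SD of either group and the C1q difference of −0.16 that of NC. The stromal mean again included the low gene Cfb. With the marker lists exchanged, the C1q chains minus the fibroblast markers differed by −0.09 between the groups. The stromal components minus the macrophage markers differed by −0.26, and the groups overlapped for both. Whether the C1q chains stood closer to the macrophage or to the fibroblast markers was not tested. The values of −0.16 and −0.09 do not decide it, as the groups overlapped for each. The receptors minus the macrophage markers differed by 0.01 between the groups. The C1qb to Csf1r ratio was 7.504, 5.49 and 5.32 in NC and 5.13, 5.29 and 6.40 in those labelled SFRP2-siRNA (exact permutation p = 0.5). The C1qb to Cd68 ratio ran from 1.47 to 2.08 over the 6 libraries (exact permutation p = 1). C3 to Pdgfra was the ratio of the 22 whose groups did not overlap, at 6.31, 6.83 and 6.44 in NC and 4.07, 6.07 and 5.02 in those labelled SFRP2-siRNA, a log2 difference of −0.39 with an exact permutation p of 0.1 and an adjusted p of 1. Markers of other cell types differed in direction. The 9 neutrophil genes had sums of 1158 to 1809 FPKM in NC and 1005 to 5550 FPKM in those labelled SFRP2-siRNA, with 7 higher and 2 lower in the mean and a median log2 fold change of 0.81. Of 10 adipocyte genes 0 were higher, of 10 keratinocyte genes 3, of 7 endothelial genes 4 and of 7 skeletal muscle genes 7, with medians of −0.50, −0.17, 0.0079 and 0.62. All 7 skeletal muscle genes were lowest in NC 1, as were 6 of the 9 complement genes and 46.9% of all genes. Of the genes in these lists, 0 passed the threshold. The liver makes most plasma complement, and 8 hepatocyte genes summed to between 1.03 and 6.31 FPKM, with Alb, the albumin gene, at 0.41 to 2.34 FPKM.

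Among single genes, those most alike to the mean of the C1q chains were found by the root mean square difference of centred log2 values over the 6 libraries, for genes that averaged 5 FPKM or more. The nearest of 8095 genes were Loxl1, a lysyl oxidase that crosslinks elastin (0.044), Tgfbr2, a TGF-beta receptor (0.062), Gnpda1 (0.078), Rassf2 (0.079) and Bmp1, a protease that processes procollagen (0.083). Loxl1 had 31.1, 50.03 and 29.6 FPKM in NC and 59.5, 50.01 and 52.4 FPKM in those labelled SFRP2-siRNA. The genes nearest to C3 were Irgm2 (0.087), Rnf213 (0.115), Stat2 (0.117), Arsi (0.122) and Fcna (0.135), with C4b at rank 12 of 8097. Irgm2, an interferon-inducible GTPase, had 2.58, 8.29 and 3.89 FPKM in NC and 6.66, 7.22 and 5.42 FPKM in those labelled SFRP2-siRNA, so NC 2 was the highest library for Irgm2 as for C3. Near C4b stood C1qtnf1 (0.072), Rab31 (0.096), Ctsh (0.097) and Ctsc (0.101), of which Ctsh and Ctsc encode lysosomal cathepsins.

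The rest of the pathway was followed in 43 other complement genes, of which 30 passed the filter on low values. The mean log2 level was higher in the libraries labelled SFRP2-siRNA for 24 of the 30 (71.8% of all genes were higher) and lower for 6, and 0 passed the threshold. An unadjusted p under 0.05 was reached by 10 of the 30, all higher (6.72% of all genes), and 8 were higher without overlap (C1s1, Colec12, Serping1, Itgam, C1rb, C2, C7 and Vsig4), where 13.9% of all genes were. Their median log2 fold change was 0.43.

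Of the genes that start the cascade, C1s1, the protease partner of C1r, had means of 17.9 FPKM in NC and 27.0 FPKM in those labelled SFRP2-siRNA (log2 fold change 0.61, exact permutation p = 0.1). C1ra stood at 1.05 to 1.41 times C1s1 in all 6 libraries. C1s1 shares 18.4% of its exon bases with the antisense gene Gm16567, which was not among the genes with deposited values. It also has the near copy C1s2, so its level is uncertain. Fcna, a ficolin that binds sugars, had means of 11.2 and 16.5 FPKM (0.58, exact permutation p = 0.3), and Colec12, a scavenger collectin, 5.36 and 9.42 FPKM (0.73, exact permutation p = 0.1). Cfp, properdin, which stabilises the alternative pathway enzyme, had means of 39.9 and 64.6 FPKM (0.70, exact permutation p = 0.2). Cfd, the adipocyte protease that cuts factor B, did not follow them, with 99.8, 153 and 150 FPKM in NC and 226, 94.4 and 86.3 FPKM in those labelled SFRP2-siRNA. Its log2 fold change was −0.11, and it turned above 0 when NC 2, SFRP2-siRNA 2 or SFRP2-siRNA 3 was left out.

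Fold changes of complement inhibitors lay on both sides of 0. Serping1, the inhibitor of C1r and C1s, had 76.4, 129 and 101 FPKM in NC and 183, 164 and 142 FPKM in those labelled SFRP2-siRNA, without overlap (log2 fold change 0.69, exact permutation p = 0.1). Serping1 stood at 4.06 to 5.002 times C1ra in all 6 libraries, with no difference detected between the groups (exact permutation p = 0.7). Cd55, a membrane inhibitor of the C3 enzymes, had means of 7.16 and 12.1 FPKM (0.67, exact permutation p = 0.2), and Cr1l 4.74 and 5.36 FPKM (0.14). Cd59a, which blocks pore formation, had means of 23.9 and 18.3 FPKM (−0.39, exact permutation p = 0.3), and Clu, clusterin, 48.1 and 29.4 FPKM (−0.70, exact permutation p = 0.4). C1qbp, a mostly mitochondrial protein that binds C1q, had 23.8 and 27.5 FPKM (0.20). The cellular receptors were higher in the mean, with 5.49 and 12.1 FPKM for Itgam (0.96, exact permutation p = 0.1) and 25.0 and 44.8 FPKM for Itgb2 (0.84, exact permutation p = 0.2), which together form complement receptor 3, and 13.2 and 19.0 FPKM for Cd93 (0.50, exact permutation p = 0.3). Of the 7 genes of the terminal pathway, 4 (Hc, C8a, C8b and C9) did not pass the filter, and Hc encodes C5, the precursor of the C5ar1 ligand.

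**Figure D4:**
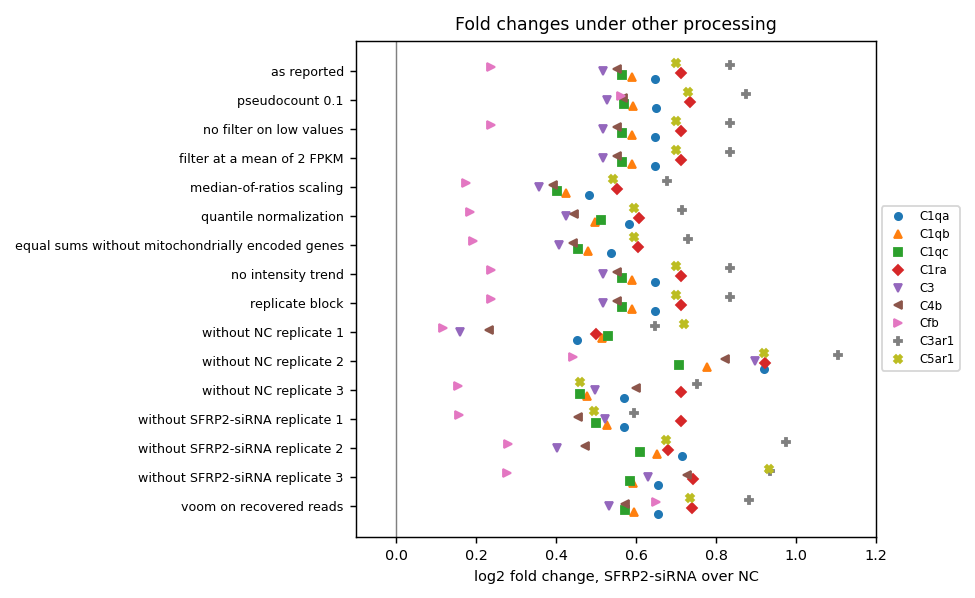
log2 fold change (SFRP2-siRNA over NC, horizontal axis) of the 9 genes as reported and under 15 alternative settings (rows), with a symbol for each gene. All points lie to the right of 0; the largest value of 7 genes is the one without NC 2, while Cfb is largest with voom and C5ar1 without SFRP2-siRNA 3, and C3, C4b and Cfb move closest to 0 without NC 1.

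The plot of settings shows that the log2 fold change was above 0 for all 9 genes in each setting that fitted them, with Cfb below the filter at 2 FPKM. The range over the alternatives was 0.45 to 0.92 for C1qa, 0.43 to 0.78 for C1qb, 0.40 to 0.71 for C1qc, 0.50 to 0.92 for C1ra, 0.16 to 0.90 for C3, 0.23 to 0.82 for C4b, 0.12 to 0.65 for Cfb, 0.59 to 1.10 for C3ar1 and 0.46 to 0.93 for C5ar1. The number of the 9 without overlap changed more, from 1 under quantile normalization or equal sums without mitochondrially encoded genes to 9 without NC 2. Of all genes, 6.09%, 4.41% and 25.9% were higher without overlap under these settings, in that order.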

How the data were processed

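Transcript levels came from 1 table of FPKM values that the authors deposited (fragments per kilobase, corrected for library size), made from paired-end mRNA libraries. The submitters' processing notes name HISAT2, featureCounts and Subread. The genome build and annotation are not given in the sources used here. With GENCODE vM21 gene lengths, 98.5% of values under 200 reads were whole reads within 0.02 reads, and this gave the totals. Mates were counted singly, so reads are not independent. Libraries of a group were no duplicates (lowest chi-square per degree of freedom 50.7).

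Values were analysed as log2(FPKM + 1) for genes that averaged 0.5 FPKM or more, using limma 3.58.1 in R 4.3.3 (lmFit, eBayes with trend, two-sided, Benjamini-Hochberg over 16005 genes), tested on simulated data. Single values were compared by two-sided exact permutation tests. Python 3.11.15 and pandas 2.3.3 were used for tables. A symbol was found for 32582 genes and not for 602. Genes of the 9, markers, the other complement genes averaging 5 FPKM or more and the 5 genes most alike to a pattern were named, though not every gene so picked is named here. The members and lists were chosen with earlier results of these data known. Same-numbered libraries correlated at −0.05, −0.15 and 0.38 in their deviations, so the numbers were not used as pairs.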

Additional observations from a re-analysis of the deposited data

How the results depend on the processing

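With limma, 0 genes and 0 of the 9 complement genes passed the threshold as reported and in all 15 alternatives: leaving out each library, 3 scalings, the replicate block, a pseudocount of 0.1, genes of 2 FPKM or more, all genes without a filter, limma without its intensity trend, and voom on recovered reads, chosen after seeing the data. The number of the 9 genes without overlap was 4 as reported, 2 under median-of-ratios scaling, 1 under quantile normalization and 1 under equal sums without mitochondrially encoded genes. Of all genes, 13.9%, 5.26%, 6.09% and 4.41% were higher without overlap, in that order. Without NC 1, 2 or 3 the number was 4, 9 and 4 (15.8%, 25.9% and 29.05% of all genes). Without SFRP2-siRNA 1, 2 or 3 it was 4, 5 and 6 (23.7%, 21.2% and 22.1% of all genes). The causes of these moves were not tested. The C1q chains, less the median of all genes, ranged from 0.32 to 0.67 and the stromal components from 0.19 to 0.64. With the replicate block, 0 genes passed (lowest adjusted limma p 0.193) and 3 of the 9 complement genes had an unadjusted p under 0.05, where the fit without the block gave 5. Of all 16005 genes, 1255 were higher at that level with the block and 1075 without it. Of 718 fits of 48 named genes, 710 kept their direction. The others were Cfd (−0.11 as reported, lowest −0.54 without a library) at 0.0019 without NC 2, 0.082 without SFRP2-siRNA 2 and 0.15 without SFRP2-siRNA 3, Adipoq (lowest −0.53) at 0.031 without SFRP2-siRNA 3, and Krt5 (highest 0.36 without NC 3) at −0.058 under median-of-ratios scaling, −0.0042 under equal sums, −0.090 without NC 1 and −0.14 without SFRP2-siRNA 1. The reads behind the FPKM values limit Cfb most, at 45 to 150 reads a library, and 3 libraries a group limit every permutation p to at least 0.1.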

Other observations

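NC 1 stood apart from the other libraries in some ratios between macrophage transcripts and not in others. Its C1qb to Adgre1 ratio was 19.4, against 8.83 to 10.4 in the other 5 libraries. Its C1qa to C1qc ratio was 0.98, against 1.25 to 1.46. Its C1qb to Cd68 ratio of 1.55 lay inside the range of 1.47 to 2.08 over the libraries. The C3ar1 to Csf1r ratio of NC 1, 0.49, also lay inside its range of 0.43 to 0.63. NC 1 also had the largest share of mitochondrially encoded transcripts, 35.8% of the summed FPKM, and the part of that share in these ratios was not tested. The receptors differed from the C1q chains in SFRP2-siRNA 1, where the C1q chains minus the receptors stood at −0.40 on the centred log2 scale, against −0.09 to 0.23 in the other 5 libraries. In that library the neutrophil markers stood at 0.89, their highest value, and in SFRP2-siRNA 3 at −0.69, their lowest. The macrophage markers were also highest in SFRP2-siRNA 1, at 0.76, and the receptors minus the macrophage markers stood at 0.07 in it. In SFRP2-siRNA 2 the neutrophil markers stood at 0.69, while the C1q chains minus the receptors stood at −0.09. The part of either cell type in these values was not tested. The C3ar1 to Csf3r ratio was 0.80, 0.56 and 1.96 in SFRP2-siRNA 1, 2 and 3, and 0.74, 0.90 and 1.22 in NC (exact permutation p = 0.9), where Csf3r is a receptor of neutrophils.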
